A study of Mus musculus with 5 samples.

Results

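The 42 collagen chain genes measured on these arrays were followed in murine bone marrow (BM) plasma cells (PCs) through 3 days of culture on stromal cells. They are all the genes whose platform symbol is Col, a number, a and a number, and for which at least 1 probe set carries that symbol alone, out of 18193 genes with such a probe set. Of the 82 probe sets that fit, the one with the highest mean log2 intensity over the 5 arrays stood for each chain, and 27 chains had more than 1 to choose from. Cultured PCs (3 arrays) were kept for 3 days together with ST2 cells, a mouse BM stromal cell line, and APRIL, a cytokine that binds the PC receptor BCMA, under physiological oxygen and then sorted by flow cytometry. They were compared with ex vivo PCs (2 arrays), whose RNA was prepared right after magnetic isolation, by removal of B220 and CD49b expressing cells and enrichment of CD138high cells. All came from C57BL/6J mice primed and boosted 2 times with NP-CCG (the labels' spelling for hapten-coupled chicken gamma globulin) in incomplete Freund's adjuvant, in cycles of 21 days, and PCs were taken when over 30 days had passed since the final boost. Experiment 1 gave 1 cultured and 1 ex vivo array, and experiment 2 gave 2 cultured arrays and 1 ex vivo array. Nothing states that the 2 cultured arrays of experiment 2 came from separate cultures, nor how many mice went into an array, so the spread between arrays may be technical.

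Collagens are the main structural proteins of the extracellular matrix. Each molecule is a triple helix of 3 chains, which are hydroxylated and folded in the endoplasmic reticulum, secreted, trimmed outside the cell and crosslinked. Fibrillar collagens such as I, III and V build fibrils, collagen IV builds the sheet of basement membranes, collagen VI builds beaded filaments around cells, and FACIT collagens sit on the surface of fibrils. In the bone marrow these chains are known as products of stromal cells, osteoblasts and vessel walls, whereas PCs are known for secreting antibody.

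Col6a1, Col1a2 and Col3a1 had the 3 largest differences between cultured and ex vivo PCs among the 42 chains, and 300 bases around their annotated starts are shown for that reason, from RefSeq on GRCm38.p6, 5′ to 3′ on the strand of the gene, from 250 bases before the start to 50 after it. Col1a2 is at chr6:4505368-4505667 (plus strand), Col3a1 at chr1:45311288-45311587 (plus strand) and Col6a1 at chr10:76725995-76726294 (minus strand). Capitals mark 3 short promoter motifs looked for on both strands, the CCAAT box (CCAAT or ATTGG), the GC box (GGGCGG or CCGCCC) and the TATA box (TATAAA or TTTATA).
Col1a2: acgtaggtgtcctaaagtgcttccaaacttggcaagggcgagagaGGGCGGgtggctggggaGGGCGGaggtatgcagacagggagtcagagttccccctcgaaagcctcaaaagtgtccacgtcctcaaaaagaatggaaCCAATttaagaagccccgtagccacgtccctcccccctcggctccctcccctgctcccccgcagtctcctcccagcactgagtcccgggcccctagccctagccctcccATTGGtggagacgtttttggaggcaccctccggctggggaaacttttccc
Col3a1: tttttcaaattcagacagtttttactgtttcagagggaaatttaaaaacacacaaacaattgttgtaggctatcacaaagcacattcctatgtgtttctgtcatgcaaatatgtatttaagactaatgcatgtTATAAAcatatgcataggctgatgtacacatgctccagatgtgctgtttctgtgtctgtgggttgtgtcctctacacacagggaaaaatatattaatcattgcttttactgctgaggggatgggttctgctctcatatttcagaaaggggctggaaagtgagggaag
Col6a1: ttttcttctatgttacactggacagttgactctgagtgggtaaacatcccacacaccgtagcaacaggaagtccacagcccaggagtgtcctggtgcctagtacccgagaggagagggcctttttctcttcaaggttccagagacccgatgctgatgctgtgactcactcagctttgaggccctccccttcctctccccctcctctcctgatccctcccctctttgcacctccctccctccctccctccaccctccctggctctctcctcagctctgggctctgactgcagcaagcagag
The Col1a2 window held 2 CCAAT boxes and 2 GC boxes, the Col3a1 window held 1 TATA box and the Col6a1 window held none of these letters. Col4a1 and Col4a2, the chains of the common collagen IV molecule, start head to head on chromosome 8, so their windows, chr8:11312777-11313076 (minus strand) and chr8:11312555-11312854 (plus strand), share 78 bases, which are in capitals.
Col4a1: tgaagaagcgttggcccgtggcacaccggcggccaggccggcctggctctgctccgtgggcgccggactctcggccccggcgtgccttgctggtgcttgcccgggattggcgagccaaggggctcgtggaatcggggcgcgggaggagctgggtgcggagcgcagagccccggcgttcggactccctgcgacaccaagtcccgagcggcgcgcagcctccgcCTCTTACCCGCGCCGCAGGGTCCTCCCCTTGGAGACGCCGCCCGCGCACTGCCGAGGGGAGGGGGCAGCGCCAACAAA
Col4a2: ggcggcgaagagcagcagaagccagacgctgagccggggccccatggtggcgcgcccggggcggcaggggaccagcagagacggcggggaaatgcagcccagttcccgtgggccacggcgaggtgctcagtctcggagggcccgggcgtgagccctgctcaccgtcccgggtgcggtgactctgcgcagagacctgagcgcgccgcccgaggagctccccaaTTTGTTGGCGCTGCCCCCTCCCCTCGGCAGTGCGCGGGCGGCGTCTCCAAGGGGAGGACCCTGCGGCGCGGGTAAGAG
All 42 chains were found in the RefSeq gene table, on 15 chromosomes, and 33 had a promoter window. A GC box was found in 21 of these 33 chains, and in 38.2% of 27025 genes with such windows. A CCAAT box was found in 13 chains (41.1% of all genes) and a TATA box in 5 (15.7%). These matches describe letters in a window and no binding was measured.

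PC markers were bright in both groups. All 10 PC markers, among them Sdc1, which encodes CD138, Irf4 and Xbp1, lay between 9.99 and 13.97 on the log2 scale in cultured PCs and between 9.66 and 13.96 in ex vivo PCs, and none was called with limma. For 3 of them, Tnfrsf17, Slamf7 and Derl3, every cultured array lay below both ex vivo arrays, against 14.6% of all genes. Part of the stromal cell markers also differed. Without any collagen in the list, the summed intensity of 22 stromal markers was 3308, 6822 and 6819 in cultured PCs (experiment 1, then experiment 2) and 2501 and 2540 in ex vivo PCs. Under the block, 5 of the 19 that were tested were higher (Cdh11, Cxcl12, Cav1, Cald1 and Acta2) and 2 were lower (Vcam1 and Cdh2) in cultured PCs. Of all tested genes, 1.13% were higher and 0.611% were lower under the block. Without the block 1 marker was called, Cav1, which was higher (limma, adjusted p = 0.0298), against 0.0147% of all tested genes higher. Cdh11, Cxcl12 and Cav1 were under an intensity of 50 in both ex vivo arrays, so the filter kept them for being higher in culture. Lepr, Twist1 and Grem1 stayed under an intensity of 50 in all 5 arrays. No array of ST2 cells was analysed here, and which cells held the collagen RNA was not tested. In RNA from many cells, fewer cells of a type and less RNA per cell cannot be told apart, and the effects of culture and of the sorting step cannot be told apart either.

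Ex vivo, many chains were dim. The mean log2 value of 20 of the 42 chains (47.6%) lay under an intensity of 50 in ex vivo PCs, against 26.6% of all genes. In cultured PCs this was so for 13 chains (31.0%), against 27.1% of all genes. Of the 20, 7 reached 50 in all 3 cultured arrays, Col4a5 in 2 and Col8a2 in 1 of them, and 11 stayed under 50 in every cultured array. These 11 were Col4a3, Col4a6, Col5a3, Col6a4, Col6a5, Col9a1, Col11a1, Col13a1, Col19a1, Col24a1 and Col26a1. An intensity of 50 is a filter and not a detection call, and a change that starts below it depends on the background of the array.

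**Figure D1:**
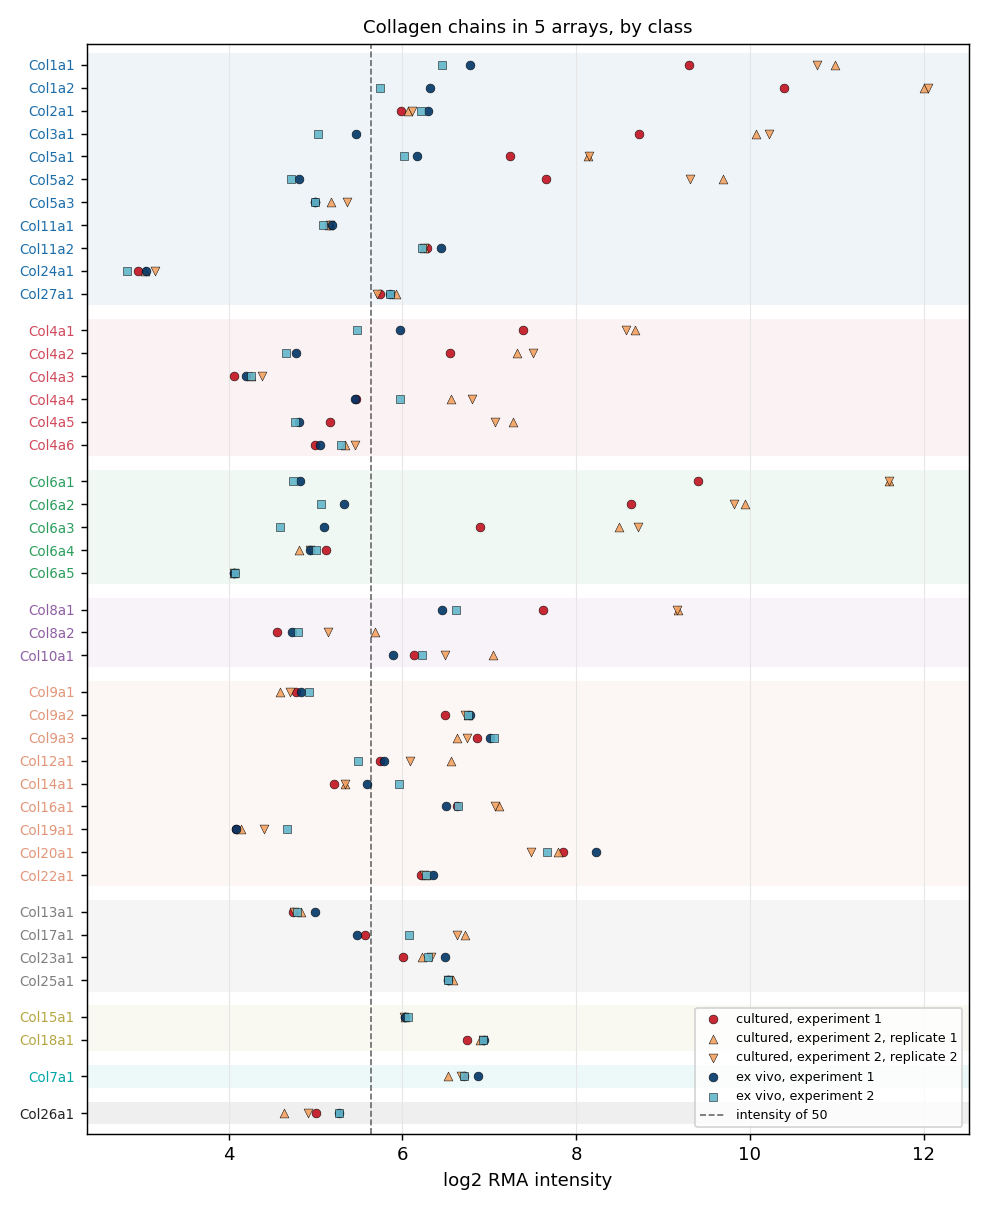
Log2 RMA intensity (x axis) of each of the 42 collagen chains (y axis) in the 3 cultured and the 2 ex vivo arrays, 1 point per array, with chains coloured by class and a dashed line at an intensity of 50. In cultured PCs 12 chains lie above both ex vivo arrays in all 3 arrays, up to 12.05 for Col1a2, and most others overlap.

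Without the experiment in the model, no chain was called at an adjusted p under 0.05 (limma, 0 higher and 0 lower of 29 tested chains, over 30477 probe sets), where 0.0147% of 13578 tested genes were higher and 0.0442% were lower. At an unadjusted p under 0.05, 12 chains were higher and 0 were lower, against 3.45% and 3.25% of all tested genes. With the experiment as a block, 10 chains were higher and 0 were lower, against 1.13% and 0.611% of all tested genes. These 10 were Col1a1, Col1a2, Col3a1, Col4a1, Col4a2, Col5a1, Col5a2, Col6a1, Col6a2 and Col6a3. The other 13 chains reached 50 in fewer than 2 arrays and were not tested, and 7 of the 29 tested chains, 6 of the 10 among them, reached 50 in cultured arrays alone, so that the filter itself kept them for being higher. With all 42 chains in the fit and the block, 4 passed (Col1a2, Col3a1, Col6a1 and Col6a2), against 0.297% of all genes higher, and without the block 0 passed, against 0.0055%. Leaving out cultured arrays of experiment 2 from the fit with the block gave 7 chains (the first left out) and 5 chains (the second left out). The block count was 0 without the cultured array of experiment 1 or without either ex vivo array, when a single experiment held both groups. Without the block, leaving out the cultured array of experiment 1 gave 12 chains. Counted by position alone, every cultured array lay above both ex vivo arrays for 12 of the 42 chains, against 6.66% of all genes, and below both for 6 chains, against 14.6%. For a single chain, 3 cultured and 2 ex vivo arrays leave an exact permutation test (two-sided) with a smallest possible p of 0.1. This ignores the experiments, and exchanging arrays only within them would leave fewer arrangements and a larger smallest p.

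**Figure D2:**
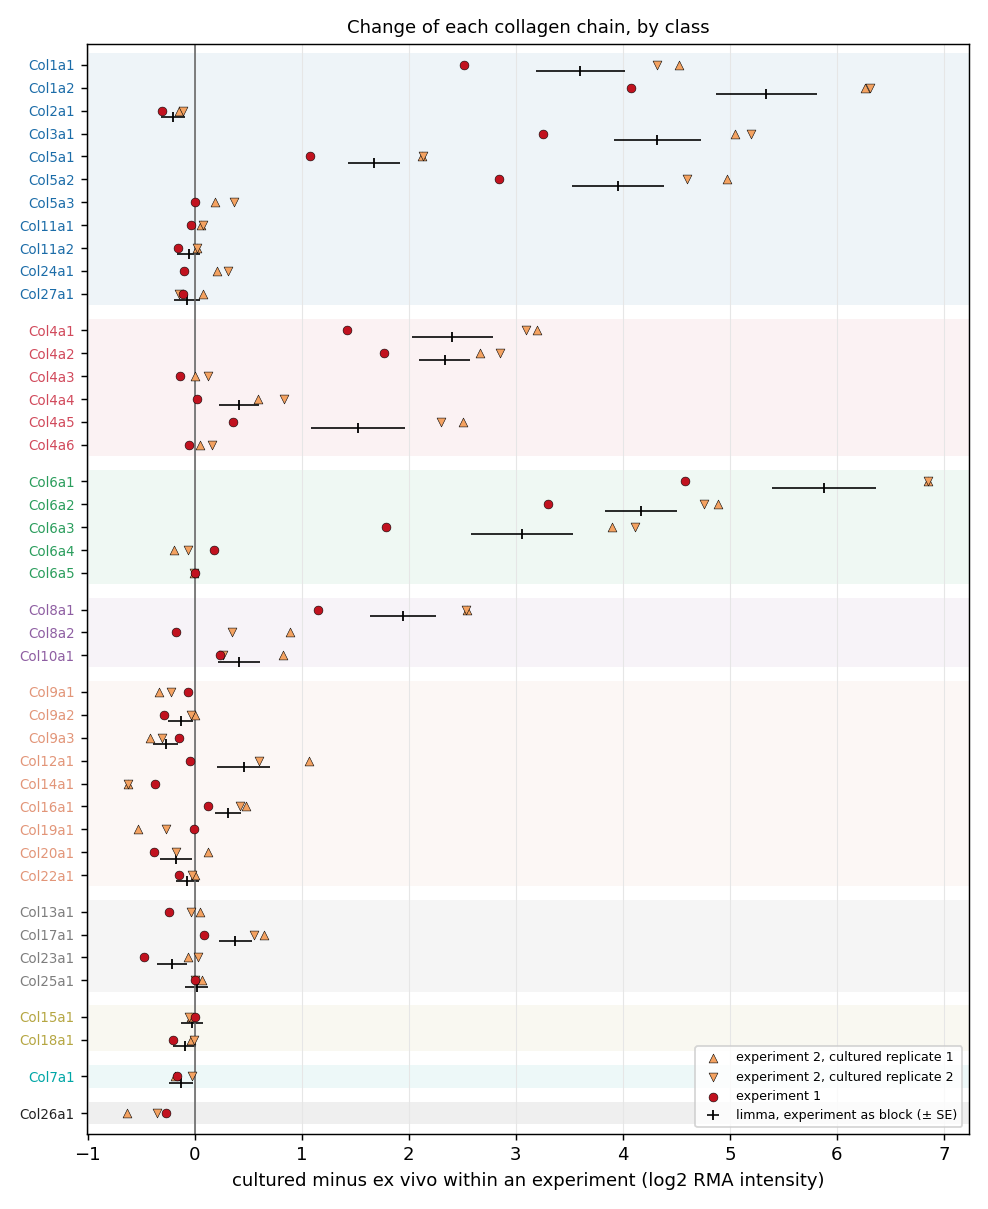
Cultured minus ex vivo log2 RMA intensity within each experiment (x axis) for the 42 chains (y axis), with a triangle for each of the 2 cultured arrays of experiment 2, a circle for experiment 1, and limma's change ± SE with the experiment as a block below them for the 29 tested chains. Col6a1 and Col1a2 lie farthest from 0, and 22 chains lie within 0.5 of 0 in every pair.

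Collagen I is the main fibre of bone, built from 2 chains of Col1a1 and 1 of Col1a2. Col1a2 had log2 levels of 10.39, 12.01 and 12.05 in cultured PCs (experiment 1, then experiment 2), against 6.32 and 5.74 in ex vivo PCs. Col1a1 had 9.29, 10.97 and 10.77 in cultured PCs, against 6.78 and 6.45 in ex vivo PCs. For both chains the lowest cultured array lay far above the highest ex vivo array, and both ex vivo arrays were above an intensity of 50. With the block, Col1a2 rose by 5.34 (SE 0.47, adjusted p = 0.0118), which is 40.5-fold, and Col1a1 by 3.60 (SE 0.41, adjusted p = 0.0234). Without the block, the adjusted p was 0.0890 for Col1a2 and 0.190 for Col1a1. A second probe set of each chain was also higher by over 1 in every pair. That of Col1a2 was under 50 in both ex vivo arrays and passed the filter through the cultured arrays alone. The third one of Col1a2, which was not tested, was higher by 0.62 and 1.23 in experiment 2. In experiment 1 it was higher by 0.19, with both arrays of that experiment under 50.

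Collagen III shares tissues with collagen I, and collagen V regulates the diameter of such fibrils. Col3a1 had log2 levels of 8.72, 10.07 and 10.22 in cultured PCs, against 5.47 and 5.02 in ex vivo PCs. Its neighbour on chromosome 1, Col5a2, had 7.66, 9.68 and 9.31 in cultured PCs, against 4.81 and 4.71 in ex vivo PCs. Col5a1 had 7.24, 8.14 and 8.15 in cultured PCs, against 6.16 and 6.02 in ex vivo PCs. The groups did not overlap for any of the 3 on these probe sets, and the ex vivo arrays of Col3a1 and Col5a2 were under an intensity of 50. With the block, Col3a1 rose by 4.32 (SE 0.40, adjusted p = 0.0138), Col5a2 by 3.95 (SE 0.43, adjusted p = 0.0208) and Col5a1 by 1.67 (SE 0.24, adjusted p = 0.0407). The second probe sets of Col3a1 and Col5a2 were under 50 in all 5 arrays and carried little of this, with differences of at most 0.80 in any pair. The other 2 probe sets of Col5a1 were tested and missed the threshold with the block, at changes of 0.66 (SE 0.11, adjusted p = 0.0536) and 0.49 (SE 0.16, adjusted p = 0.211), and the groups met at 6.36 on the last. The third collagen V chain, Col5a3, had log2 levels of 5.0, 5.18 and 5.37 in cultured PCs, against 5.0 in both ex vivo arrays, all under 50. Of the other fibrillar chains, the cartilage chains Col2a1, Col11a1 and Col11a2 and the chains Col24a1 and Col27a1 had differences from -0.20 to 0.10.

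Collagen VI is built from Col6a1, Col6a2 and 1 more chain, most often Col6a3. Col6a1 had log2 levels of 9.40, 11.60 and 11.59 in cultured PCs, against 4.82 and 4.74 in ex vivo PCs. Col6a2, its neighbour on chromosome 10, had 8.64, 9.95 and 9.81 in cultured PCs, against 5.33 and 5.06 in ex vivo PCs. Col6a3 had 6.89, 8.49 and 8.71 in cultured PCs, against 5.10 and 4.59 in ex vivo PCs. All 3 were under 50 in both ex vivo arrays and above it in all cultured arrays. With the block, Col6a1 rose by 5.88 (SE 0.48, adjusted p = 0.0092), Col6a2 by 4.17 (SE 0.33, adjusted p = 0.0086) and Col6a3 by 3.05 (SE 0.48, adjusted p = 0.0487). Of the chains that can take the place of Col6a3, Col6a4 had 5.12, 4.81 and 4.94 in cultured PCs, against 4.94 and 5.0 in ex vivo PCs, and Col6a5 lay between 4.06 and 4.07 in all 5 arrays.

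The collagen IV genes lie in 3 head-to-head pairs, and only 1 pair was higher as a whole. Col4a1 had log2 levels of 7.39, 8.68 and 8.58 in cultured PCs, against 5.97 and 5.48 in ex vivo PCs. Col4a2 had 6.55, 7.32 and 7.50 in cultured PCs, against 4.78 and 4.65 in ex vivo PCs. These 2 chains, which share the promoter bases shown above and form one molecule, rose with the block by 2.41 (SE 0.38, adjusted p = 0.0487) and 2.34 (SE 0.24, adjusted p = 0.0168). A second tested probe set of Col4a1 was also higher in every pair but missed the threshold with the block, at 3.32 (SE 0.54, adjusted p = 0.0535). It was under 50 in both ex vivo arrays and passed the filter through the cultured arrays alone. On the X chromosome, Col4a5 had 5.17, 7.27 and 7.06 in cultured PCs, against 4.81 and 4.76 in ex vivo PCs, and its difference with the block was 1.52 (SE 0.44, adjusted p = 0.162). It was far above the ex vivo arrays in experiment 2 and close to them in experiment 1. Its partner Col4a6 had 5.0, 5.34 and 5.45 in cultured PCs, against 5.05 and 5.30 in ex vivo PCs. Col4a4 had 5.47, 6.56 and 6.80 in cultured PCs, against 5.45 and 5.97 in ex vivo PCs, and Col4a3, its neighbour on chromosome 1, lay between 4.06 and 4.38 in all arrays. Col4a4 had an adjusted p of 0.322 with the block, and Col4a3 did not pass the filter.

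The remaining classes had few large differences. Among short chain network collagens, Col8a1, a chain of vessel walls and of the corneal membrane named here after its values were seen, had log2 levels of 7.62, 9.17 and 9.16 in cultured PCs, against 6.46 and 6.62 in ex vivo PCs. Its difference with the block was 1.95 (SE 0.31, adjusted p = 0.0501), just outside the threshold. All 3 of its probe sets were higher in every pair, and the other 2 passed with the block. Those 2 were under an intensity of 50 in both ex vivo arrays, so the filter kept them for being higher in culture. None of the 9 FACIT, 4 transmembrane and 2 multiplexin chains, Col7a1 and Col26a1 was called, and 5 of them were not tested. Col10a1, Col16a1 and Col17a1, named after their values were seen, were higher in every pair, by 0.09 to 0.82, and not called. Col12a1, also named so, had 1.07 and 0.60 in experiment 2 and -0.05 in experiment 1. A second tested probe set of it had 1.61, 1.49 and 0.40 (adjusted p = 0.122 with the block). That probe set was under 50 in both ex vivo arrays and passed the filter through cultured arrays alone. Of those with values under the ex vivo arrays, Col14a1, a FACIT chain, had 5.22, 5.33 and 5.34 in cultured PCs, against 5.59 and 5.96 in ex vivo PCs. Col26a1 had 5.0, 4.64 and 4.91 in cultured PCs, against 5.27 in both ex vivo arrays. Col9a3, a chain of cartilage collagen IX, had 6.86, 6.63 and 6.75 in cultured PCs, against 7.01 and 7.05 in ex vivo PCs. On these probe sets the 3 chains were lower in every pair by at most 0.63. Col14a1 and Col26a1 were not tested, and Col9a3 had an adjusted p of 0.298 with the block. Their other probe sets, under 50 in all 5 arrays, were mixed. For Col14a1 they had -0.05 and 0.06 in experiment 1 and 0.0006 to 0.46 in experiment 2. For Col9a3, a probe set was higher in every pair, by 0.17 to 0.29, and another had differences from -0.07 to 0. That of Col26a1 was lower in every pair, with differences from -0.36 to -0.25. Col20a1 had 7.84, 7.79 and 7.49 in cultured PCs, against 8.22 and 7.66 in ex vivo PCs, and Col18a1, which encodes the precursor of endostatin, had 6.74, 6.90 and 6.92 in cultured PCs, against 6.94 and 6.93 in ex vivo PCs.

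Taken by class, the median difference was 3.18 for 5 collagen VI chains, 1.14 for 6 collagen IV chains, 0.50 for 3 short chain network collagens and 0.19 for 11 fibrillar chains. It was -0.17 for the FACIT collagens and -0.04 for the transmembrane ones, and over all 42 chains it was 0.06, where the median over all genes was -0.06. The chains fell into a group of 11 that were higher by over 1 in every pair, against 0.605% of all genes, and 31 others with a median of -0.02. The 11 were the 10 chains named above and Col8a1.

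For these 11 chains the difference was larger in experiment 2 than in experiment 1. Its median over the chains, cultured minus ex vivo, was 4.42 in experiment 2 and 2.51 in experiment 1. Over all genes the medians were -0.04 and -0.07. The gap had one sign for 11 of 11 chains, from 0.99 to 2.27. These chains share the same arrays and were chosen by the same differences, so they are not replicates of the gap. The 2 cultured arrays of experiment 2 differed by at most 0.37 for these chains. For Col6a1 the difference was 6.86 and 6.85 in experiment 2 and 4.58 in experiment 1. In limma's test of the interaction of culture and experiment, which had 1 residual degree of freedom, 0 chains were called at an adjusted p under 0.05, against 0.0% of all genes, and 12 chains had an unadjusted p under 0.05, against 5.77% of all tested genes. On the linear scale, the increment in intensity in experiment 1 was 21.1% to 45.5% of that in experiment 2 for the 11 chains, with a median of 29.9%. For the 6 stromal markers that were higher by over 1 in every pair it was 23.8% for Lrp1, 29.3% for Cdh11, 52.0% for Acta2, 54.6% for Cxcl12, 62.6% for Cald1 and 85.5% for Cav1. These 11 chains and 6 markers were all higher in the cultured arrays of experiment 2 than in that of experiment 1. They were chosen by the same values, since a difference under 1 in experiment 1 excluded a gene. Kitl, with 0.77 in experiment 1 and 3.87 and 3.89 in experiment 2, was left out that way, as were Angpt1 and Gja1. Vcam1 and Cdh2 were lower in every pair. The part of the collagens in the markers, or the reverse, was not tested. Between the experiments with culture as a covariate, 2 chains were called, Col17a1 at 0.89 (SE 0.15, adjusted p = 0.0127) and Col4a4 at 0.91 (SE 0.19, adjusted p = 0.0218), both higher in experiment 2, against 11.0% of all genes higher and 14.1% lower. Both calls were lost without the cultured array of experiment 1 or without either ex vivo array, and 1 of them was lost when the second cultured array of experiment 2 was left out.

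**Figure D3:**
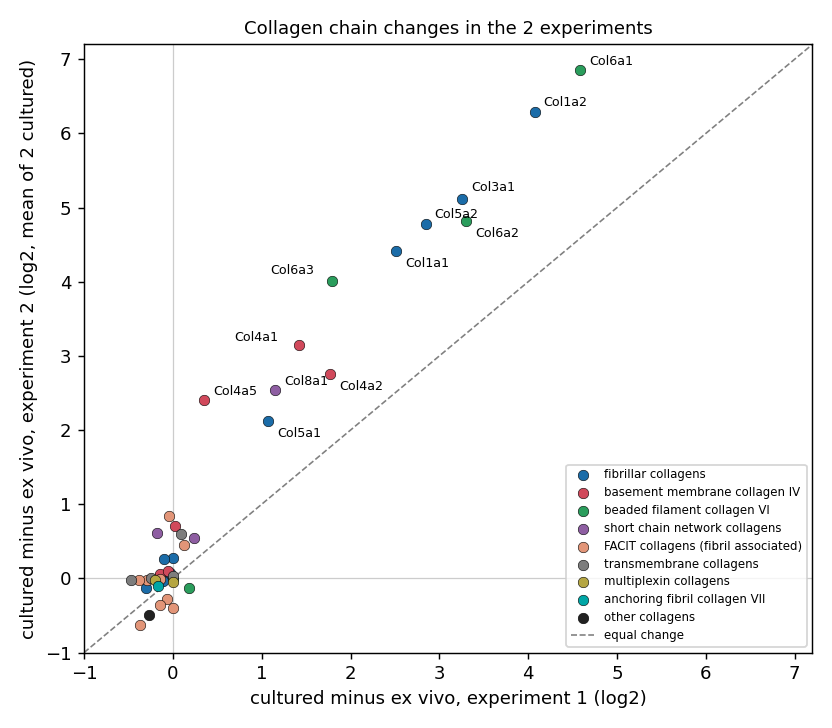
Cultured minus ex vivo log2 RMA intensity of each chain in experiment 2 (y axis, mean of its 2 cultured arrays) against experiment 1 (x axis), coloured by class, with a dashed line for equal change. All 11 chains that were higher by over 1 in every pair lie above the line, and the other chains except Col4a5 gather near 0.

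Of 23 genes for folding and modification, 2 were called with the block, both higher, against 1.13% of all tested genes. Without the block 0 were called. P4ha1, a catalytic subunit of the prolyl hydroxylase that stabilizes the helix, had log2 levels of 9.96, 10.33 and 10.25 in cultured PCs, against 8.51 and 8.97 in ex vivo PCs. Plod2, the lysyl hydroxylase for crosslink sites, had 6.72, 8.33 and 8.21 in cultured PCs, against 5.19 and 5.16 in ex vivo PCs. With the block they rose by 1.38 (SE 0.11, adjusted p = 0.0086) and 2.44 (SE 0.35, adjusted p = 0.0398), where Plod2 was under 50 in both ex vivo arrays and passed the filter through the cultured arrays alone. Serpinh1, the collagen-specific chaperone HSP47, named after its values were seen, had 7.45, 7.91 and 8.03 in cultured PCs, against 6.27 and 5.23 in ex vivo PCs (adjusted p = 0.0552 with the block). The general folding factors P4hb, Ppib, Pdia3 and Hsp90b1, which antibody-secreting cells also use, had differences from -0.28 to 0.39, none of them called.

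Of 10 genes for trimming and crosslinking (8 tested), 3 were higher with the block and 0 were lower, against 1.13% and 0.611% of all tested genes. Pcolce, which enhances removal of the procollagen tail, had log2 levels of 8.35, 8.69 and 8.68 in cultured PCs, against 6.00 and 6.03 in ex vivo PCs, and was also called without the block (adjusted p = 0.0395). Lox, the lysyl oxidase that starts crosslinks, had 7.13, 9.67 and 9.61 in cultured PCs, against 4.19 and 3.99 in ex vivo PCs. With the block, Lox rose by 4.49 (SE 0.57, adjusted p = 0.0301), its relative Loxl1 by 1.44 (SE 0.21, adjusted p = 0.0419) and Pcolce by 2.53 (SE 0.12, adjusted p = 0.0028). Lox was under an intensity of 50 in both ex vivo arrays and entered the test through the cultured arrays alone.

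Of 20 matrix partners of collagen fibrils (18 tested), 5 were higher with the block and 0 were lower, against 1.13% and 0.611% of all tested genes. Without the block 0 were called. Fn1, which encodes fibronectin, had log2 levels of 9.06, 10.62 and 10.71 in cultured PCs, against 5.86 and 5.33 in ex vivo PCs. Thbs2, a thrombospondin, had 7.43, 9.41 and 9.21 in cultured PCs, against 4.41 and 4.83 in ex vivo PCs. Sparc, a collagen-binding protein of bone, had 8.90, 10.28 and 10.29 in cultured PCs, against 6.61 and 5.80 in ex vivo PCs. In these 3 genes the cultured array of experiment 1 was the lowest cultured array. Bgn, which encodes the proteoglycan biglycan, had the other order, with 9.86 in experiment 1 and 9.05 and 9.20 in experiment 2 in cultured PCs, against 8.04 and 5.75 in ex vivo PCs. The changes with the block were 4.42 for Fn1 (SE 0.46, adjusted p = 0.0180), 3.85 for Thbs2 (SE 0.33), 3.55 for Sparc (SE 0.47) and 2.70 for Bgn (SE 0.34). Of these, Thbs2 was under 50 ex vivo and was tested through the cultured arrays alone. Prelp was the fifth, and the small proteoglycan genes Dcn, Lum and Fmod had differences from -0.12 to -0.08.

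Of 11 collagen receptors measured (7 tested), 0 were called without the block and 1 was higher with it, against 1.13% of all tested genes. This was Ddr2, a receptor tyrosine kinase for fibrillar collagen, with log2 levels of 7.49, 8.07 and 8.05 in cultured PCs, against 6.21 and 5.88 in ex vivo PCs (change with the block 1.79, SE 0.21, adjusted p = 0.0253). Itgb1, which encodes the integrin β1 subunit shared by collagen and other receptors, had 9.03, 9.15 and 9.02 in cultured PCs, against 8.69 and 9.23 in ex vivo PCs, so the groups overlapped. Of its partners for collagen, Itga1 and Itga2 did not pass the filter, and Itga10 had 6.73, 6.76 and 7.06 in cultured PCs, against 6.74 and 6.72 in ex vivo PCs. Of 13 genes for degradation (9 tested), 2 were higher with the block, against 1.13% of all tested genes, and 0 were lower. They were Ctsl, a lysosomal protease (0.70, SE 0.11, adjusted p = 0.0471), and Timp3, an inhibitor of matrix proteases (0.94, SE 0.15, adjusted p = 0.0485). Mmp13 and Timp2, named after their values were seen, had larger changes but missed the threshold. With the block these were 2.44 (SE 0.48, adjusted p = 0.0804) and 2.18 (SE 0.42, adjusted p = 0.0767). Mmp13 was under 50 in both ex vivo arrays.

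**Figure D4:**
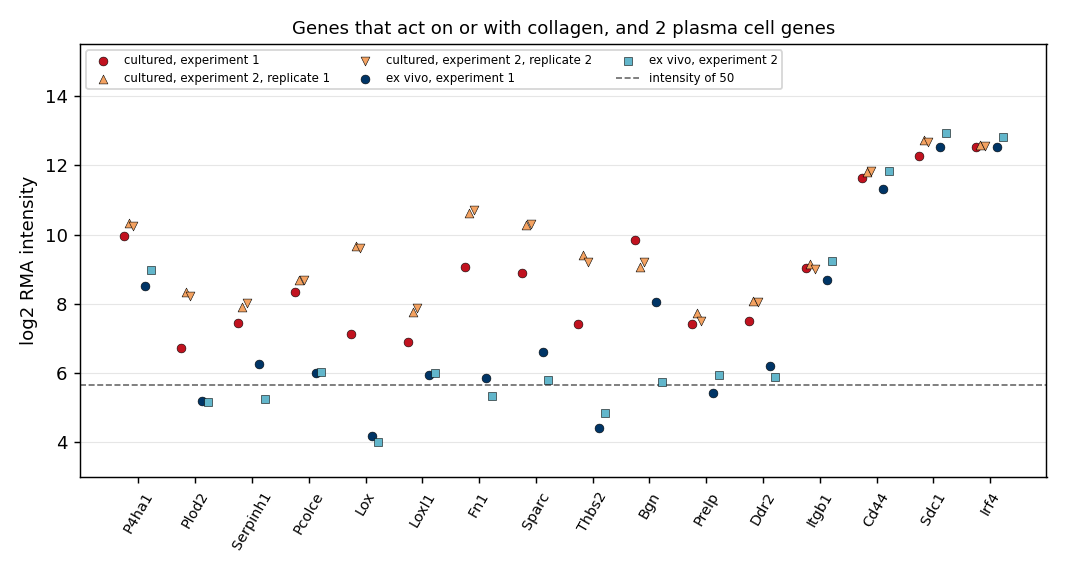
Log2 RMA intensity (y axis) of 12 genes that act on or with collagen, of the receptor genes Itgb1 and Cd44 and of the PC genes Sdc1 and Irf4 (x axis), 1 point per array, cultured arrays left of ex vivo arrays, with a dashed line at an intensity of 50. Lox, Fn1 and Thbs2 show wide gaps between the groups, whereas Itgb1, Cd44 and Irf4 overlap.

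Markers of other cells known to make collagen were also counted. Of the markers measured, 2 of 5 for osteoblasts, 3 of 8 for chondrocytes, 6 of 10 for endothelial cells and 4 of 6 for pericytes or smooth muscle passed the filter, and none of those tested was called, with or without the block. Alpl, the alkaline phosphatase of osteoblasts, had a difference of 0.47, and Sox9, the cartilage regulator, one of 0.44. Of 5 adipocyte markers (3 tested), Cebpa was higher with the block, with 5.81, 6.56 and 6.94 in cultured PCs, against 4.53 and 4.62 in ex vivo PCs, and it was tested through the cultured arrays alone. Over all tested genes, 1.13% were higher and 0.611% were lower with the block. Of 10 macrophage markers (8 tested), 1 was higher and 5 were lower in cultured PCs with the block. Vcam1, which is also in the stromal list, is among the 5. C1qa had 5.27, 5.15 and 5.24 in cultured PCs, against 7.49 and 7.31 in ex vivo PCs. C1qa and C1qb, both among the 5, were tested through the ex vivo arrays alone, so the filter kept them for being lower in culture. No neutrophil (5 tested of 9), erythroid (3 of 5) or megakaryocyte and platelet marker (2 of 4) was called. Of the 9 neutrophil markers, 6 were below both ex vivo arrays in every cultured array, against 14.6% of all genes. The median difference over the list was -0.60. Of 9 B cell markers (8 tested), Dntt and Cd72 were lower with the block, and of 8 T and NK cell markers (5 tested), Gzma was lower.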

How the data were processed

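Total RNA of 3 cultured and 2 ex vivo PC samples was hybridized to Affymetrix mouse genome arrays. The deposited intensities were made by the authors with RMA from the affy package (the submitters' processing notes also name GCOS, versions not given in the sources used here), and are on a linear scale (4.94 to 26947.2, array medians 87.05 to 94.14). RMA can compress differences that begin near background. The intensities were converted to log2 here. The arrays hold 45101 probe sets. After removal of 64 controls, 34945 had 1 gene symbol in the platform annotation, 932 had several and 9160 had none, and no gene was named from one with several. The number of arrays limits the precision.

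A probe set entered the test if 2 or more arrays reached an intensity of 50. The test was limma (version 3.58.1, R 4.3.3) with lmFit and eBayes, with Benjamini-Hochberg adjustment over all 30477 probe sets and a threshold of 0.05, with culture alone (the study's methods name limma and this threshold but no model terms), with the experiment as a block, with the experiment as the term tested, and for the interaction. The experiment numbers in the titles pair the samples. Deviations from group means correlated at 0.749, 0.558 and 0.719 within experiments, and since the 2 ex vivo arrays mirror each other these values are not independent. Each gene was represented by its brightest probe set by mean log2. The fits were checked on simulated data with known changes. The members, classes, pathway and marker lists and tests were chosen with earlier results of these data known. Values in every array are given for chains called with or without the block, the 3 brightest in each group, the 3 with the largest and the 3 with the most negative differences of one sign, and all chains of collagens I, III, IV, V and VI, and for up to 4 called members of each list. Others are said to have been chosen after their values were seen, as were Alpl and Sox9, Itgb1, Dcn, Lum and Fmod and the general folding factors. Promoter windows and gene order are from RefSeq (GRCm38.p6). Alternatives changed the block, the filter, the normalization, the moderation, the thresholds or the probe set of a chain, averaged the 2 cultured arrays of experiment 2, or left out an array.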

Additional observations from a re-analysis of the deposited data

Results flagged for a closer look

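Col4a6 and Col6a4 were the chains with values given for every array whose difference between cultured and ex vivo PCs had opposite signs in the 2 experiments. For Col4a6 it was 0.05 and 0.16 with the cultured arrays of experiment 2 and -0.05 in experiment 1, so that experiment 2 minus experiment 1 came to 0.152526. For Col6a4 it was -0.19 and -0.06 in experiment 2 and 0.18 in experiment 1, which gave -0.302449. Both chains were under an intensity of 50 in all 5 arrays, neither was tested, and the difference between the experiments was not tested.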

How the results depend on the processing

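The direction of the 10 chains called with the experiment as a block was the same in every alternative in which they were tested, with log2 differences between 1.08 and 6.85, but the number of calls depended on the setting. Culture alone called 0 chains. With the block it was 10, with the 2 cultured arrays of experiment 2 averaged 5, without the filter 4, with the 10000 highest means 2 (of 2 chains tested), with a mean-variance trend 11 and with any probe set of a chain 11. The chain added by any probe set was Col8a1, through 2 probe sets that were under 50 in both ex vivo arrays. With values floored at an intensity of 50 and the block, 5 of the 10 passed (Col1a1, Col1a2, Col3a1, Col6a1 and Col6a2). At an adjusted p under 0.1 it was 2 without the block and 11 with it, and at an unadjusted p under 0.01 it was 11 with and without it. Leaving out 1 array gave 0 to 12 calls, and with the block 7 and 5 without the first and second cultured array of experiment 2, and 0 otherwise. Between the experiments, 0 of 2 chains passed with the 10000 highest means and 0 to 2 without 1 array. The planned block was not run there, since the experiment is the term tested.

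Leaving out 1 array gave medians of 0.19 to 1.67 for collagen IV, 1.79 to 4.0 for collagen VI, -0.14 to -0.023 for the FACIT class, -0.10 to -0.02 for the multiplexin class, 0 to 0.28 for the fibrillar and 0.24 to 0.71 for the short chain class, and it turned the sign of the transmembrane median (-0.12 to 0.02) and of the median over all chains (-0.0017 to 0.12). For the FACIT class the median was -0.069 with a floor of 50, for the multiplexin class -0.10 after a second quantile normalization and -0.10 after centring, and for Col26a1 0 with a floor. The share of chains under an intensity of 50 ex vivo was 45.2% after either rescaling, 71.4% with the mean of all probe sets of a chain, 33.3% for a limit of 32, 88.1% for a limit of 100, and 50% to 52.4% in single arrays. In culture it was 50% with the mean of all probe sets, 19.0% for a limit of 32 and 61.9% for a limit of 100. Col20a1 changed sign, to 0.046, without the ex vivo array of experiment 1, and was -0.52 without that of experiment 2. The causes were not tested. With 5 arrays, and signals near background for 20 chains ex vivo, small differences cannot be resolved.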
